A study of Mus musculus with 3 samples.

Results

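The vacuolar ATPase and lysosome genes form a set of 35 genes of the proton pump, of the lysosome and of the vesicle traffic that serves it. They were listed by gene symbol, with earlier results of these data known when they were chosen. Of the 35 symbols, 34 were found among the 30406 genes shared by the 3 libraries of the series, and the symbol Atp6v0a3 matched none. By role there were 8 genes of the V1 sector of the pump, 9 of its V0 sector (8 found), 2 accessory subunits, 3 lysosome membrane proteins, 7 cathepsins, 3 Rab GTPases, 2 other proteins of the lysosome lumen and the transcription factor Tfeb. A filter on low counts passed 33 of them to the tests, and Atp6v0d2 did not pass.

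The vacuolar ATPase (V-ATPase) is a rotary pump whose cytosolic V1 sector splits ATP and whose membrane-bound V0 sector carries protons into endosomes, lysosomes and related organelles. The acid it makes activates the cathepsins, proteases that digest what reaches the lysosome, and Rab7, Rab32 and Rab38 steer vesicles to late endosomes, lysosomes and lysosome-related organelles. The nucleus pulposus (NP), the gel-like core of the intervertebral disc, comes from the notochord, whose cells are known for large fluid-filled vacuoles that have been described as lysosome-related.

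The cells came from whole lumbar, thoracic and caudal discs of untreated mice at postnatal day 30, of genotype shh-cre:R26R-tdTomato. In these mice Cre made at the Shh locus switches on the red protein tdTomato in cells that express Shh or descend from such cells, and TdTomato+ cells were sorted after collagenase digestion. All 3 libraries were replicates of this single group. Each was a pool of litter-matched mice, and they were sequenced as replicate batches with the 10x Genomics Chromium 3' kit v3. There is no control group, so the comparisons are between classes of cell within the libraries, and a difference between libraries can be one of pool or of batch.

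Each cell was placed in a class by fixed marker genes, none of which is in the set. NP cells had transcripts of at least 3 of Krt8, Krt18, Krt19 and T, the genes by which the series identifies them, and were split at 1% of their transcripts from mitochondrial genes. Below it lay the low-mt NP cells, 424, 32 and 17 in libraries 1, 2 and 3 (the order used throughout), and above it the intact NP cells, 105, 114 and 9. The sum of 9 cells was too small for the tests (a minimum of 10), so tests of intact NP cells rest on libraries 1 and 2. The other classes were chondrocytes (942, 329 and 64 cells), other connective tissue (124, 264 and 768), macrophages (28, 538 and 210) and other blood cells (3411, 8434 and 7935). Despite the sort for tdTomato, other blood cells were the most numerous class in each library. The make-up of other connective tissue differed by library, with 35, 181 and 572 osteoblast-gated cells in it. The libraries held 64695292, 145925353 and 137188648 unique molecular identifiers (UMIs, each a counted transcript), and shared few barcodes among kept cells (14 to 29 per pair). Levels below are counts per 1000000 UMIs of the summed class (CPM). They show a gene's share of the class's RNA, and counting is at the 3' end, so they are not divided by transcript length.

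The classes were checked by gate genes of other classes and by genes in no gate. Of 6 further NP genes, summed, intact NP cells held 12789.5, 21725 and 21047 CPM, low-mt NP cells 26020, 36515 and 41354 and chondrocytes 93.9, 81.5 and 229. The 8 chondrocyte gate genes stood at 18365, 9395 and 4821 CPM in intact NP cells, 901, 608 and 357 in low-mt NP cells and 54886, 54462 and 35219.6 in chondrocytes. A further 5 chondrocyte genes outside the gate were closer, at 6945, 6868 and 2859 CPM in intact NP cells and 11319, 8621 and 6023 in chondrocytes. The 10 connective gate genes stood at 6476, 1773 and 48894 CPM in intact NP cells and 7 osteoblast genes at 421, 7.3 and 8437, so that the 9 intact NP cells of library 3 carried much connective RNA. Haemoglobin RNA in macrophages was 3171, 76064 and 162856 CPM and in other blood cells 10958, 42995 and 25193, and 5 neutrophil granule genes stood at 1135, 733 and 974 CPM in intact NP cells, 27929, 64639 and 90421 in macrophages and 191088, 142172 and 145106 in other blood cells. The part of such RNA in the results was not tested. The 8 macrophage gate genes were near 0 in intact NP cells, at 29.3, 24.3 and 0 CPM.

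The promoters of the set are shown because the factor encoded by Tfeb is known to bind the 6-letter palindrome CACGTG upstream of lysosome genes. RefSeq promoters (build GRCm38.p6, 250 bases before to 50 after each start) matched 26 of the 34 genes, with 32 starts. CACGTG lay in 8 of the 32 member promoters (25%) and in 7.15% of all 32851 promoters of the same length. The word TCACGTG on either strand, which always contains CACGTG, lay in 7 of the 32 (21.9%) and in 3.77% of all. The 5 stretches of 80 bases below run 5′ to 3′ on the gene's strand and lie before the start, with CACGTG in capitals.
Lamp1, chr8:13159081-13159160, forward strand: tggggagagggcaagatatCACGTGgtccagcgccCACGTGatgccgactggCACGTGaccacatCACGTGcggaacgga
Atp6v0b, chr4:117887330-117887409, reverse strand: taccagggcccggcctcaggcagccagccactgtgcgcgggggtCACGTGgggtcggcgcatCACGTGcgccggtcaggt
Ctsd, chr7:142387883-142387962, reverse strand: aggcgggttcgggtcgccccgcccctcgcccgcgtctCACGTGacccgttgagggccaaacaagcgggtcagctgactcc
Ctsa, chr2:164833693-164833772, forward strand: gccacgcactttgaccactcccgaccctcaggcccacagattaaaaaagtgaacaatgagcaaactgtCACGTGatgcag
Atp6v1a, chr16:44139348-44139427, reverse strand: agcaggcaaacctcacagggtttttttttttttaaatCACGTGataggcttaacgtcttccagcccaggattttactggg
Lamp1 held 4 copies, starting 61, 45, 28 and 15 bases before its start, and Atp6v0b held 2, at 36 and 18 bases. The word was also found for Ctsl, Atp6v0d1 and Atp6v0e. A match is a string of letters, not a site shown to be bound. The promoter of another Ctsa start (chr2:164832622-164832921) did not hold it. By gene, 8 of the 26 members with an entry held the word (30.8%), beside 8.09% of all 27025 genes with an entry. Among those lower in intact NP cells than in macrophages 3 of 11 did, and 5 of 13 among those not called. Among those lower in low-mt than in intact NP cells 2 of 4 did, and 6 of 22 among those not called.

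In intact NP cells Rab38 was higher than in each of the 4 other classes compared. Beside it 2 genes of the V1 sector were higher than in chondrocytes and 4 than in other connective tissue, and 0 of 7 cathepsin genes were called against either. A gene was called higher or lower at an adjusted p under 0.05 (edgeR's quasi-likelihood F-test, p-values adjusted by Benjamini-Hochberg over 13121 genes). Log2 fold changes are given ± their standard error. Against chondrocytes 3 of 33 members were called higher and 0 lower, and 12% of the 13121 genes tested were called, 5.85% higher and 6.16% lower. Against other connective tissue 5 members were higher and 2 lower, and 22.9% of the 13121 genes tested were called, 10.7% higher and 12.2% lower. The intact NP sums, which hold the chondrocyte gate RNA given above (more in library 1), enter both. The members' shares called, 9.09% and 21.2%, were near or below those of all genes. Their median log2 fold changes were 0.30 and 0.24, with -0.14 and -0.15 over all genes.

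**Figure D1:**
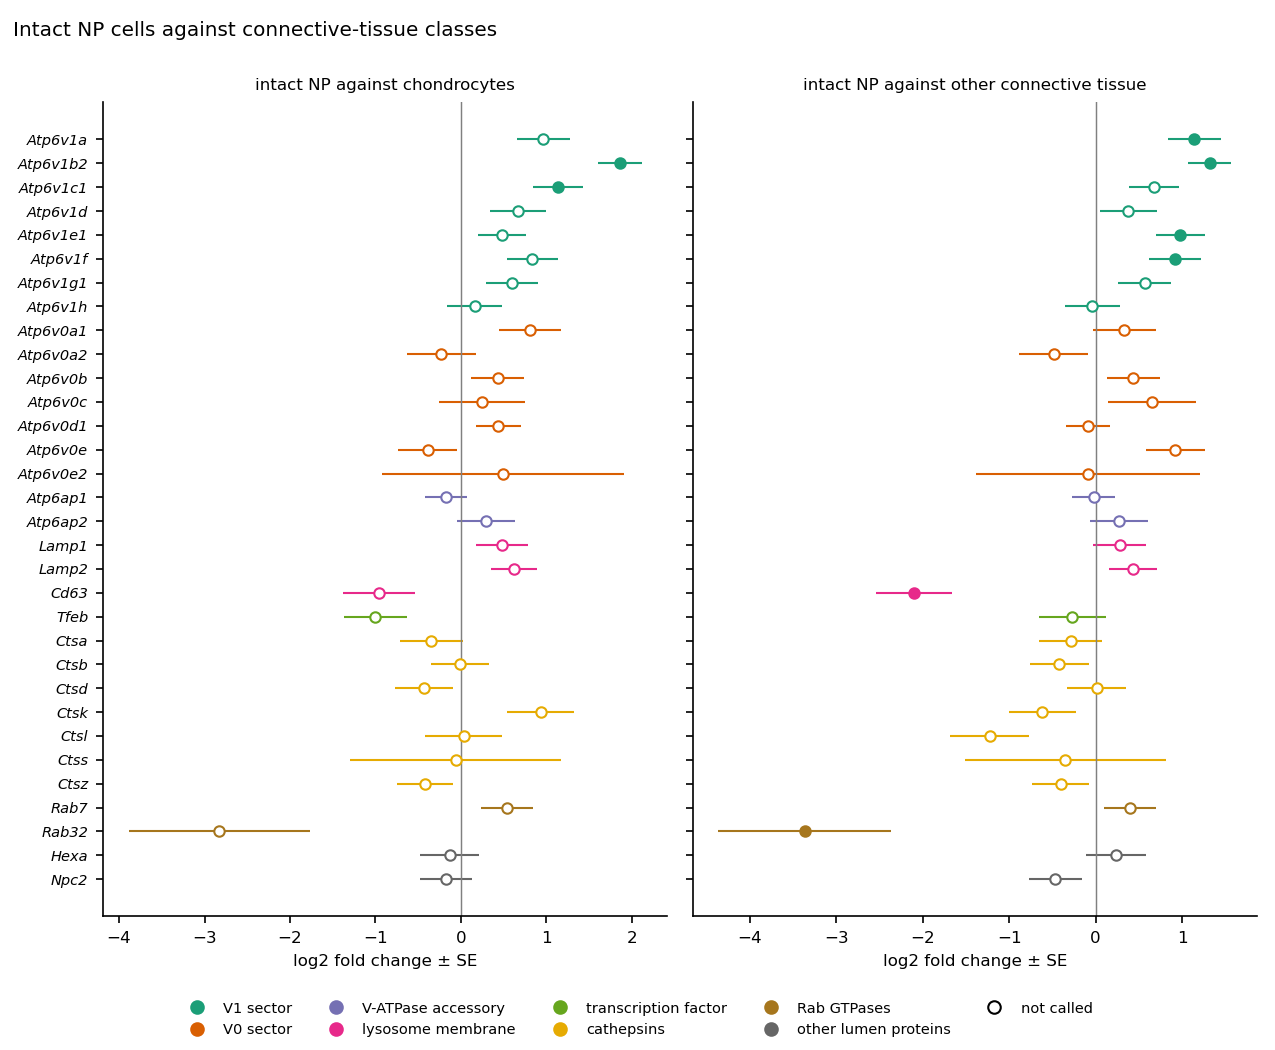
Log2 fold change with its standard error of each tested member in intact NP cells against chondrocytes (left) and other connective tissue (right), coloured by role, filled where called. Rab38 is left out for scale (10.99 and 6.65). V1 genes lie to the right of 0 in both panels except Atp6v1h against other connective tissue (-0.04), and Cd63 and Rab32 lie to the left.

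Against macrophages most calls were lower. There 3 members were higher in intact NP cells and 13 lower, and 48.4% of the 13121 genes tested were called, 21.9% higher and 26.5% lower. Lower members made up 39.4%, and the members' median was -0.51 with -0.18 over all genes. Against other blood cells 6 were higher and 4 lower, and 55.3% of the 13121 genes tested were called, 26.8% higher and 28.6% lower, beside 30.3% of the members. In macrophages against other blood cells 12 members were higher and 0 lower (36.4% higher), and 14.2% of the 13121 genes tested were called, 9.85% higher and 4.31% lower. Comparisons that share a class share its libraries, and are set side by side without a test of their overlap.

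Genes of the V1 sector carry the pump's ATPase. Atp6v1b2, a B subunit of the ATP-splitting ring, stood at 69.9, 74.6 and 15.5 CPM in intact NP cells, 16.7, 18.8 and 19.3 in chondrocytes and 51.9, 19.6 and 19.4 in other connective tissue. In libraries 1 and 2 intact NP cells lay above both other classes, and in library 3, with 1 UMI from 9 cells, below both. The log2 fold change was 1.86 ± 0.26 (adjusted p = 1.76e-04) against chondrocytes and 1.32 ± 0.25 (adjusted p = 0.0012) against other connective tissue, higher in 2 of 2 libraries each. Leaving out library 1 or 2 leaves a single intact NP sum, which is then assumed to vary like the sums of the other classes, here and below. Both calls were lost without library 2 (1.98, adjusted p = 0.0783, and 1.19, adjusted p = 0.196). The order turned against macrophages, where Atp6v1b2 stood at 133, 104 and 100.4 CPM and NP cells were lower by edgeR at -0.85 ± 0.26 (adjusted p = 0.0122), a call lost without any 1 of the 3 libraries (adjusted p = 0.0844, 0.384 and 0.13 without library 1, 2 and 3). Atp6v1b2 (ENSMUSG00000006273, chromosome 8 from 69088646 to 69113711) has its place, like all positions here, on mouse build mm10 in the GENCODE vM21 annotation, and counts are of the whole gene.

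Atp6v1c1, the C subunit that joins stalk and ring, was the other V1 gene called against chondrocytes. It stood at 35.8, 39.8 and 61.8 CPM in intact NP cells and 18.1, 14.9 and 13.4 in chondrocytes, with every NP value above every chondrocyte value. The log2 fold change was 1.14 ± 0.29 (adjusted p = 0.0169), lost without library 2 (1.16, adjusted p = 0.495), without library 3 (1.02, adjusted p = 0.0739) and in a fit of only the 2 classes (1.11, adjusted p = 0.0961). Atp6v1a, the catalytic A subunit, just missed the threshold there at 0.96 ± 0.31 (adjusted p = 0.0526).

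Against other connective tissue Atp6v1a, Atp6v1e1 and Atp6v1f, the catalytic subunit, a stalk subunit and a subunit of the central rotor, were called higher beside Atp6v1b2. Atp6v1f stood at 374, 398 and 169.98 CPM in intact NP cells, 324, 141 and 131 in other connective tissue and 192, 180.3 and 190.2 in chondrocytes, and its log2 fold change against connective tissue was 0.92 ± 0.30 (adjusted p = 0.035). Atp6v1e1 stood at 161, 227 and 169.98 against 136, 70.2 and 73.1 CPM, without overlap, and gave 0.98 ± 0.28 (adjusted p = 0.0199). Atp6v1a stood at 98.4, 91.7 and 61.8 against 108, 22.3 and 17.3 CPM. By CPM it was slightly lower in NP cells in library 1 and higher in libraries 2 and 3. The fitted log2 fold change was 1.14 ± 0.30 (adjusted p = 0.0116). In library 1, the CPM of each of the 8 V1 genes in other connective tissue was above those in libraries 2 and 3. These CPM are before the TMM scaling of the tests, where a larger factor lowers a level. The factors were 1.46, 0.87 and 0.86 for other connective tissue and 1.10 and 1.07 for intact NP cells of libraries 1 and 2. How far the V1 genes differ between libraries beyond this scaling was not tested. Without library 2 these 3 fell to 0.76, adjusted p = 0.631 for Atp6v1f, 0.67, adjusted p = 0.646 for Atp6v1e1 and 0.66, adjusted p = 0.611 for Atp6v1a, and without library 3 they also missed the threshold (adjusted p = 0.1, 0.0689 and 0.108). Atp6v1a also lost its call without the replicate block. In a fit of only the 2 classes compared all 4 V1 calls against other connective tissue were lost (adjusted p = 0.312 for Atp6v1a, 0.14 for Atp6v1b2, 0.248 for Atp6v1e1 and 0.364 for Atp6v1f), with log2 fold changes between 0.93 and 1.27.

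The remaining V1 genes, Atp6v1d, Atp6v1g1 and Atp6v1h, which encode a rotor, a stalk and a regulatory subunit, were not called in any of the 6 comparisons. Atp6v1g1 stood at 335, 358 and 185 CPM in intact NP cells and 199.9, 195 and 212 in chondrocytes, Atp6v1d at 68.3, 82.7 and 46.4 against 42.4, 40.1 and 50.5 and Atp6v1h at 25.2, 26.8 and 30.9 against 18.7, 23.8 and 16.3. The median log2 fold change of the 8 V1 genes was 0.75 against chondrocytes and 0.80 against other connective tissue, with 2 and 4 called higher and 0 lower. Summed, the 8 genes stood at 1168, 1298 and 742 CPM in intact NP cells, 681, 631 and 646 in chondrocytes and 1067, 519.9 and 495 in other connective tissue. Against macrophages and other blood cells the medians were -0.16 and -0.12, and the latter was 0.02 with DESeq2 size factors. The V1 sector thus stood above that of the connective classes in libraries 1 and 2 and among that of the blood classes, at 1415, 969.8 and 901 CPM in macrophages and 842, 768 and 781 in other blood cells.

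**Figure D2:**
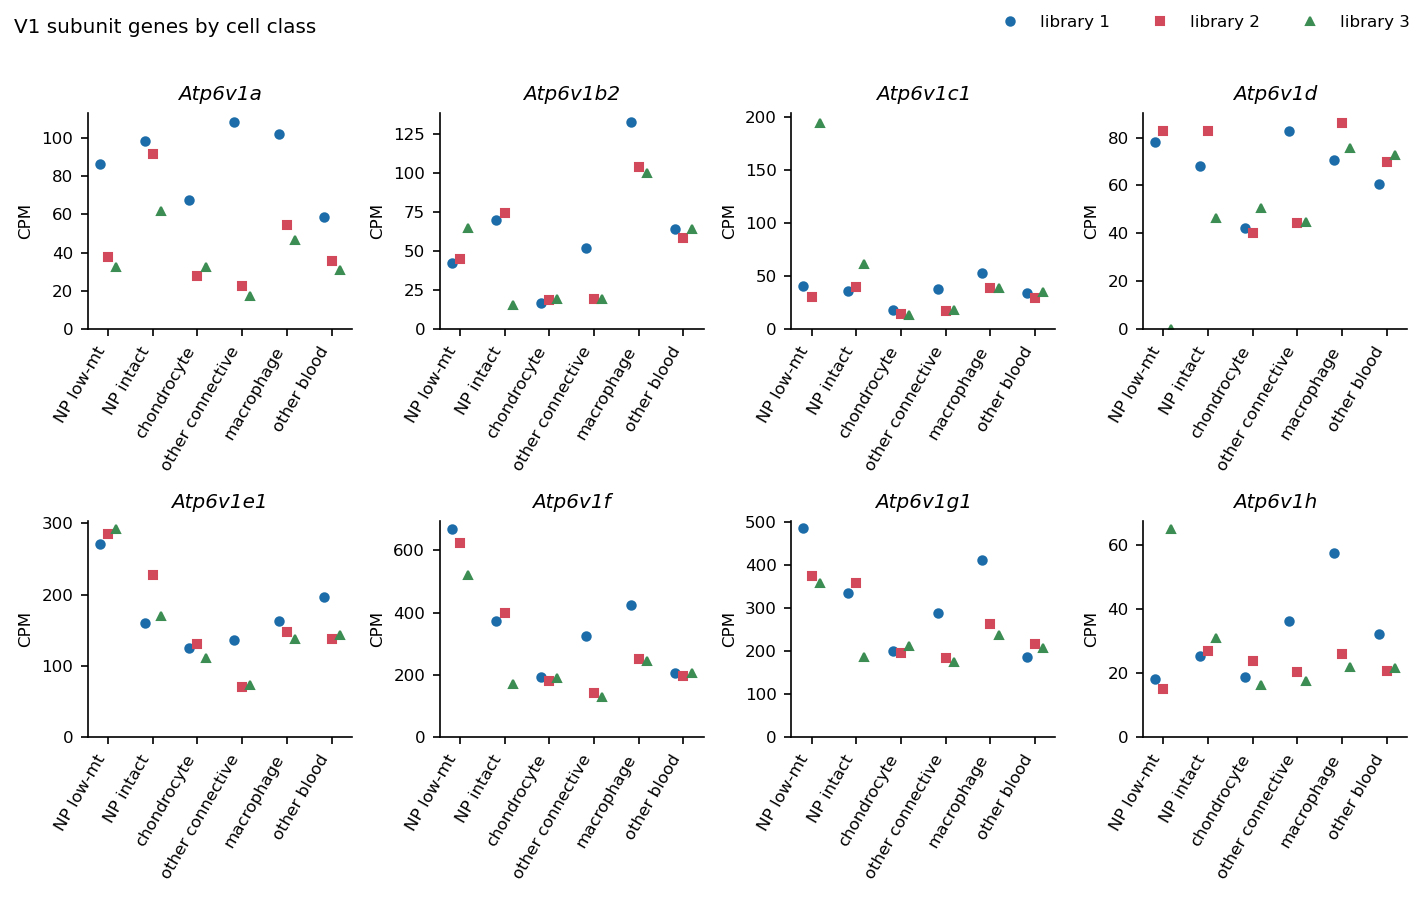
Level of each V1 subunit gene in CPM (linear axis from 0) in the 6 cell classes, 1 point per library. Atp6v1b2 in intact NP cells of libraries 1 and 2 (69.9 and 74.6) lies above chondrocytes (16.7 to 19.3) and below macrophages (100.4 to 133). The points of library 3 in both NP classes rest on 9 and 17 cells.

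The V0 sector builds the proton path. Of its 7 tested genes 0 were called against chondrocytes or other connective tissue, beside 12% and 22.9% of the 13121 genes tested. For 7 genes a count of 0 is close to those shares, and Atp6v0c among them could not be compared across libraries (below). At an unadjusted p under 0.05 in edgeR there was 1 each (Atp6v0a1 and Atp6v0e), and DESeq2's Wald test called 0 and 1. Atp6v0b, a proteolipid subunit, stood at 266, 357 and 309 CPM in intact NP cells, 184, 211 and 242 in chondrocytes and 270.2, 197 and 187 in other connective tissue. Atp6v0e, a small membrane subunit, stood at 470.1, 401 and 155, 507, 518 and 495 and 251, 198 and 179 CPM in the same classes, and gave 0.92 ± 0.34 (adjusted p = 0.0632) against other connective tissue, short of the threshold. Atp6v0a2, an a subunit of the Golgi and endosomes, was rare in all classes (22.8, 27.6 and 46.4 CPM in intact NP cells and 33.6, 18.3 and 31.2 in chondrocytes) and was called in 0 of the 6 comparisons. Summed without Atp6v0c, the V0 genes stood at 865, 915 and 556 CPM in intact NP cells and 794, 815 and 871 in chondrocytes. These sums overlapped where those of the V1 sector did not, and the difference between the sectors was not tested.

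Atp6v0a1 and Atp6v0d1, a proton-channel subunit and the subunit that couples rotor and ring, were lower than in macrophages. Atp6v0a1 stood at 24.4, 34.1 and 15.5 CPM in intact NP cells against 44.2, 62.4 and 59.5 in macrophages, with a log2 fold change of -1.19 ± 0.37 (adjusted p = 0.015), and the log2 fold change was -0.97, adjusted p = 0.285 without library 2 and -0.91, adjusted p = 0.167 without library 3. Atp6v0d1 stood at 76.5, 85.2 and 15.5 against 142, 116 and 105 CPM and gave -0.72 ± 0.27 (adjusted p = 0.0351), and it missed the threshold without library 1, 2 or 3 (-0.47, adjusted p = 0.178, then -0.47, adjusted p = 0.627, then -0.61, adjusted p = 0.143). In a fit of only the 2 classes both calls were also lost (adjusted p = 0.163 and 0.308), as were those of Atp6v1b2 (0.277) and Atp6ap2 (0.167) against macrophages. Macrophage values lay above the NP values without overlap for Atp6v0a1 and Atp6v0d1. Atp6v0d2, the other d subunit, had 0 UMIs in all 701 NP cells, and against 38 UMIs in macrophages its level in intact NP cells was at least 3.03-fold lower, taking 3 UMIs over the group as the floor.

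Atp6v0e2, a second e subunit, was rare and went the other way. It had 21 UMIs in intact NP cells (5.69, 10.5 and 15.5 CPM) and 0 in macrophages, and was at least 29.2-fold higher in NP cells. Its adjusted p of 0.0453 by edgeR missed the threshold without library 2 (0.402) or 3 (0.0538). Against other blood cells, at 1.14, 0.0388 and 0 CPM, the log2 fold change was 4.68 ± 1.39 (adjusted p = 0.0104), and without library 2 2.81, adjusted p = 0.216. Other connective tissue of library 1 held 34.6 CPM and of libraries 2 and 3 1.82 and 2.91, so the libraries were far apart there.

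Atp6v0c, which encodes the main proteolipid of the rotor ring, could not be compared across libraries. It stood at 3.25, 567 and 572 CPM in intact NP cells, 5.57, 319.7 and 406 in chondrocytes, 26.5, 703 and 917 in macrophages and 20.4, 496 and 621 in other blood cells. In other blood cells the mean of libraries 2 and 3 was 27.4 times the level of library 1, and at most 2.94 times for any other member. In the other direction Atp6v0e2, which is rare there, had the lowest such ratio, 0.017. For Atp6v0c library 1 was low in every class, and it was made with another software version than libraries 2 and 3 by the file headers. The cause was not tested. Within libraries 2 and 3 intact NP cells lay above chondrocytes and other connective tissue (252 and 274 CPM) and macrophages above both. Atp6v0c (ENSMUSG00000024121, chromosome 17 from 24163866 to 24169702) was called in none of the 6 comparisons, and it is left out of the sums over genes.

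The accessory subunits Atp6ap1 and Atp6ap2 help to assemble the pump and to bring it to its membranes, and Atp6ap2 is also known as the prorenin receptor. Intact NP cells held 54.5, 85.2 and 92.7 CPM of Atp6ap2, macrophages 146, 109 and 125 and other blood cells 152, 108 and 120.1. The log2 fold change was -1.09 ± 0.35 (adjusted p = 0.0167) against macrophages and -1.22 ± 0.34 (adjusted p = 0.00623) against other blood cells, lower in 2 of 2 libraries. Library 1 decided the second of these (-0.54, adjusted p = 0.134 without it), and the first was lost without library 1, 2 or 3 (adjusted p = 0.124, 0.147 and 0.118). Neither accessory gene was called against chondrocytes or other connective tissue.

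Rab38, a small GTPase that carries enzymes to melanosomes and other lysosome-related organelles, separated NP cells from all other classes compared. It stood at 339.97, 613 and 402 CPM in intact NP cells and 685, 773 and 975 in low-mt NP cells. Chondrocytes held 3 UMIs in all (0.321, 0 and 0 CPM), and other connective tissue 10.01, 2.96 and 2.68, macrophages 8.84, 7.94 and 6.06 and other blood cells 9.07, 8.43 and 8.2. The lowest NP value thus exceeded the highest value of the other 4 classes in every library. Over pooled UMIs Rab38 was 2223-fold (95% counting interval 759 to 10796) higher in intact NP cells than in chondrocytes, an interval that covers counting error only. The fitted log2 fold change was 6.65 ± 0.40 (adjusted p = 7.06e-08) against other connective tissue, 5.65 ± 0.40 (adjusted p = 4.16e-08) against macrophages and 5.35 ± 0.36 (adjusted p = 4.54e-09) against other blood cells. All 4 Rab38 calls, the one against chondrocytes included (adjusted p = 9.70e-09), were kept under each of the 18 alternatives tried, among them the fits without library 1 or 2 with their lone intact NP sum. Rab38 (ENSMUSG00000030559, chromosome 7 from 88430273 to 88491572) is in no gate.

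Rab38 was also found cell by cell. At least 1 UMI was seen in 85.7%, 91.2% and 66.7% of intact and 77.4%, 81.2% and 64.7% of low-mt NP cells, in 0.538%, 0.237% and 0.0809% of B-lineage cells, taken as the background, and in 6.3%, 5.36% and 5.39% of all other blood cells. With each cell thinned to 1500 UMIs the shares were 39%, 61.1% and 37.5% of intact NP cells, 63.5%, 53.6% and 62.5% of low-mt NP cells and 0.38%, 0% and 0.0428% of B-lineage cells. Median depth was 9300, 10483 and 4714 UMIs in intact NP cells, 2532.5, 3510 and 1250 in low-mt NP cells and 2694, 3326 and 2440 in B-lineage cells. Shallower cells were left out of the thinned shares, which kept 100, 113 and 8 intact and 342, 28 and 8 low-mt NP cells. The low levels in macrophages and other blood cells lay within a narrow range, 6.06 to 9.07 CPM.

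Rab32, the closest relative of Rab38, ran opposite to it. It gave 1 UMI in intact NP cells (0.813, 0 and 0 CPM) and 1 in low-mt NP cells, against 57.5, 31.8 and 36.7 CPM in macrophages and 34.6, 25.7 and 23.1 in other blood cells. By pooled UMIs it was 84.8-fold (95% counting interval 15.1 to 3359) lower than in macrophages and 66.1-fold (95% counting interval 11.9 to 2610.1) lower than in other blood cells, both called by edgeR (adjusted p = 1.52e-06 and 1.44e-06) and kept under every alternative. Chondrocytes and other connective tissue were themselves low, at 2.68, 1.98 and 5.94 and 11.8, 2.51 and 1.92 CPM. There the ratios were 6.66-fold (95% counting interval 1.12 to 269.95) lower, not called, and 6.68-fold (95% counting interval 1.14 to 269) lower, a call (adjusted p = 0.0223) lost without library 1 (adjusted p = 0.0838) or library 2 (0.332). Rab7, the late-endosome GTPase found in most cells, was in all classes between 79.7 and 227 CPM and was called in none of the 6 comparisons.

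**Figure D3:**
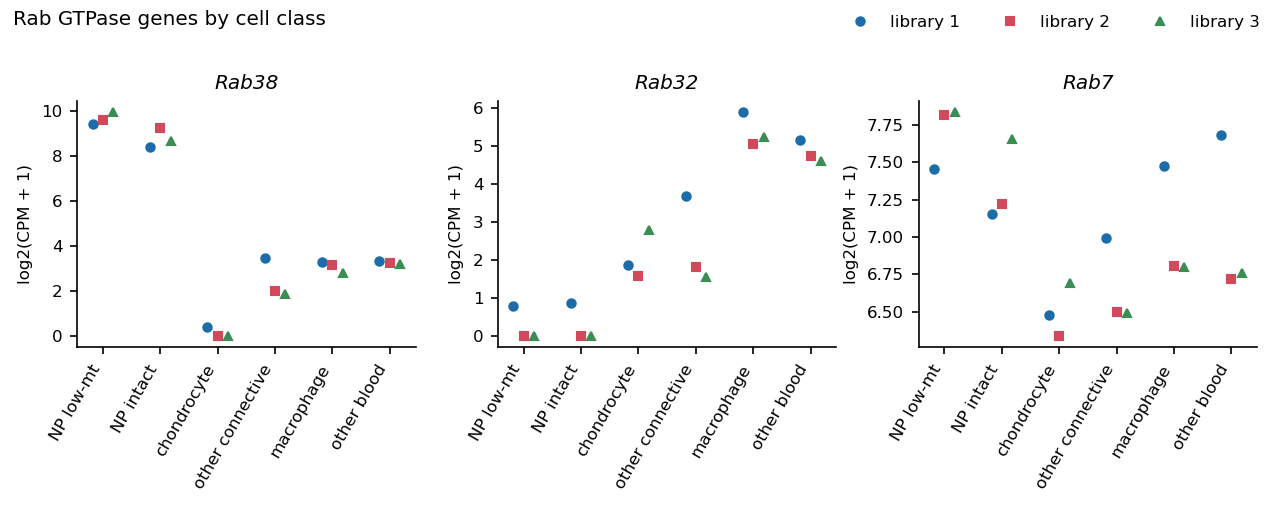
Levels of Rab38, Rab32 and Rab7 in the 6 cell classes, on a log2(CPM + 1) axis, 1 point per library. Rab38 in both NP classes lies at or above 339.97 CPM in every library and at or below 10.01 in the other 4 classes, and Rab32 is near 0 in NP cells and at 23.1 CPM or above in both blood classes.

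Among the lysosome membrane proteins, Lamp1 and Lamp2 form the bulk of the sugar coat inside the lysosome, and the tetraspanin Cd63 marks late endosomes and secreted vesicles. Lamp1 stood at 459, 565 and 556 CPM in intact NP cells and 189.5, 209 and 208 in other blood cells, and Lamp2 at 179, 322 and 155 against 110.1, 86.4 and 73.5. Every NP value lay above every value of other blood cells for both genes. The log2 fold changes were 1.00 ± 0.30 (adjusted p = 0.0095) for Lamp1 and 1.02 ± 0.27 (adjusted p = 0.00452) for Lamp2, and both missed the threshold without library 2 (0.90, adjusted p = 0.314, and 0.48, adjusted p = 0.525). Cd63 was lower than in other connective tissue, at 567, 533 and 1375 against 1470.05, 2581 and 2613 CPM, with -2.10 ± 0.44 (adjusted p = 0.00254). Its call was lost without library 2 (-1.62, adjusted p = 0.328) and in a fit of only the 2 classes (-1.74, adjusted p = 0.295), and the 9 intact cells of library 3, outside the fit, were close to the connective value of library 1.

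Tfeb, which encodes a master regulator of lysosome genes, was scarce in all classes. It stood at 8.13, 5.68 and 15.5 CPM in intact NP cells, 15.3, 9.91 and 10.4 in chondrocytes, 17.3, 5.47 and 4.29 in other connective tissue, 35.4, 20.4 and 19.7 in macrophages and 15, 14.3 and 14.1 in other blood cells. It was lower in intact NP cells than in macrophages (-2.12 ± 0.38, adjusted p = 2.47e-04) and other blood cells (-1.54 ± 0.36, adjusted p = 0.00171), in 2 of 2 libraries each. The 1 value of library 3, outside the fit, rests on a single UMI. The fitted values are also of few UMIs. In intact NP cells 8.13 and 5.68 CPM are shares of 1229529 and 1232704 UMIs. In macrophages of library 1 35.4 CPM is a share of 226142. Without library 2 the values were -1.91, adjusted p = 0.0635 and -1.44, adjusted p = 0.109.

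Of the 7 cathepsins 5 were lower in intact NP cells than in macrophages and 1, Ctsk, was higher. Ctsb, a cysteine protease, stood at 3383, 1735 and 1946 CPM in macrophages, 184, 256 and 201 in intact NP cells and 139, 165 and 178 in other blood cells. Its log2 fold change in intact NP cells was -3.54 ± 0.38 (adjusted p = 1.86e-06) against macrophages. The aspartic protease Ctsd stood at 197, 168 and 124 against 2171, 1066 and 1138 CPM and gave -3.18 ± 0.38 (adjusted p = 4.83e-06). Macrophage values of both genes lay above all NP values, and were highest in library 1, whose macrophages held the least haemoglobin and neutrophil granule RNA. The carboxypeptidases Ctsz and Ctsa stood at 157, 177 and 124 and 62.6, 97.3 and 124 CPM in intact NP cells, and at 1004, 638 and 649.5 and 522, 275 and 368 in macrophages. Their log2 fold changes were -2.35 ± 0.35 (adjusted p = 4.88e-05) and -2.33 ± 0.39 (adjusted p = 1.55e-04), and these 4 calls were kept under every alternative.

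Ctss, a cathepsin of antigen-presenting cells, gave 3 UMIs in intact NP cells and stood at 1437, 949 and 949 CPM in macrophages and 35.5, 120.2 and 88.9 in other blood cells. By pooled UMIs it was 808-fold (95% counting interval 277 to 3920.3) lower than in macrophages and 79.2-fold (95% counting interval 27.1 to 384) lower than in other blood cells (adjusted p = 1.95e-07 and 8.81e-06 by edgeR). Chondrocytes and other connective tissue were as empty of it, at 0.536, 2.23 and 0 and 0, 1.37 and 1.69 CPM. Both calls were kept under every alternative.

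Ctsk, the collagen-cutting cathepsin best known from osteoclasts, ran the other way. It stood at 63.4, 121 and 77.3 CPM in intact NP cells, 0, 1.43 and 3.03 in macrophages and 2.11, 1.68 and 3.4 in other blood cells. The log2 fold change was 5.85 ± 0.55 (adjusted p = 4.27e-07) against macrophages and 5.25 ± 0.42 (adjusted p = 2.91e-08) against other blood cells, both kept under every alternative. Other connective tissue held 118, 179 and 189 CPM and chondrocytes 30.2, 40.6 and 126, and neither comparison passed the threshold (adjusted p = 0.288 and 0.145, log2 fold changes -0.62 and 0.93). The osteoclast gate genes were at 11.4, 3.24 and 15.5 CPM in intact NP cells, with 4 of 5 at 0 in each library. Ctsl, a broad cysteine protease, was higher in intact NP cells than in other blood cells, at 201, 366 and 169.98 against 89.7, 35.3 and 32.8 CPM (2.13 ± 0.44, adjusted p = 6.80e-04), and not without library 2 (1.21, adjusted p = 0.184).

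Of the 7 cathepsins 0 were called against chondrocytes and 0 against other connective tissue, beside 12% and 22.9% of the 13121 genes tested. For 7 genes a count of 0 is close to those shares. Their medians were -0.06 and -0.40, and at an unadjusted p under 0.05 in edgeR there was 1 each (Ctsk, higher, and Ctsl, lower), and DESeq2's Wald test called 0 and 1. Summed, they stood at 865, 1187 and 819 CPM in intact NP cells, 941, 923 and 1285 in chondrocytes, 2312, 1298 and 1242 in other connective tissue and 8795, 4787 and 5168 in macrophages. Hexa, a subunit of the hexosaminidase that breaks down gangliosides, and Npc2, which hands cholesterol out of the lysosome, followed the cathepsins of macrophages. Hexa stood at 133, 195 and 124 against 566, 388 and 392 CPM (-1.68 ± 0.37, adjusted p = 0.00145) and Npc2 at 169, 216 and 216 against 818, 585 and 676 (-1.99 ± 0.32, adjusted p = 1.10e-04). Without library 2 they gave -1.69, adjusted p = 0.106 and -1.87, adjusted p = 0.0672.

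**Figure D4:**
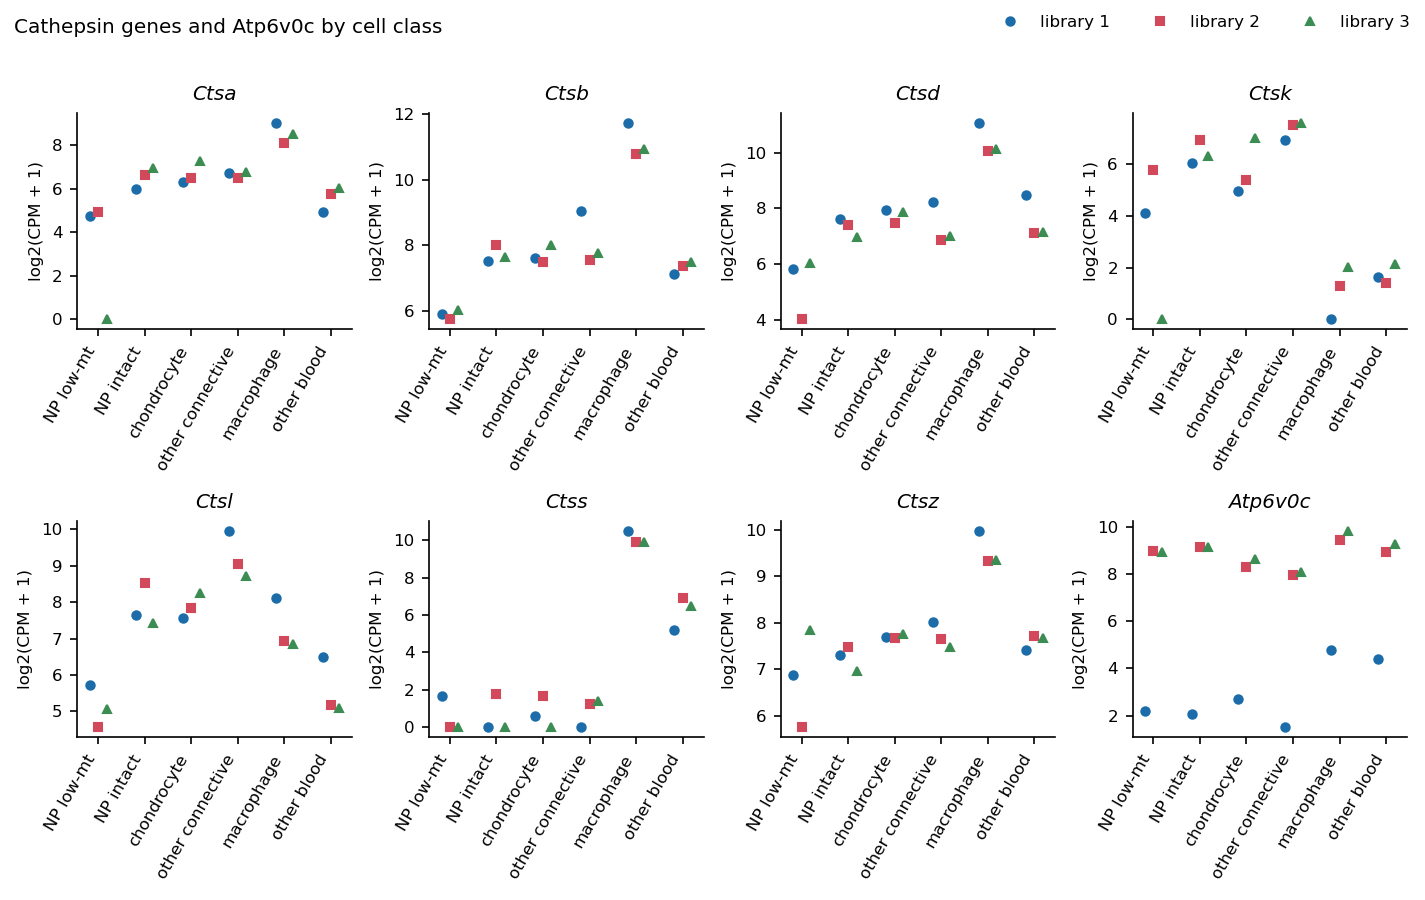
Levels of the 7 cathepsin genes and of Atp6v0c in the 6 cell classes, on a log2(CPM + 1) axis, 1 point per library. Ctsb in macrophages (1735 to 3383 CPM) lies above all other classes, Ctsk is near 0 in both blood classes, and Atp6v0c in library 1 (at most 26.5 CPM) lies far below libraries 2 and 3 in every class.

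Macrophages were higher than other blood cells in 12 members, and for this comparison all 3 libraries had both classes. The 12 members called higher were 6 cathepsins, Hexa, Npc2, Lamp1, Atp6v0a1, Atp6ap1 and Atp6v1b2, each higher in 3 of 3 libraries. The log2 fold change was 3.83 ± 0.46 (adjusted p = 1.65e-05) for Ctss, 3.68 ± 0.32 (adjusted p = 5.10e-07) for Ctsb, 2.86 ± 0.33 (adjusted p = 1.09e-05) for Ctsa and 2.68 ± 0.31 (adjusted p = 1.00e-05) for Ctsd. Lamp1 stood at 1039, 596 and 604 CPM in macrophages and 189.5, 209 and 208 in other blood cells (1.71 ± 0.27, adjusted p = 2.70e-04), and Atp6v0a1 at 44.2, 62.4 and 59.5 against 12.8, 21.4 and 17.5 (1.64 ± 0.29, adjusted p = 7.22e-04). Calls of Ctsa, Ctsb, Ctsd, Ctss and Ctsz were kept under every alternative, and without library 2 or 3 a total of 6 or 7 of the 12 calls remained. Lamp1 lost its call without library 2 (1.58, adjusted p = 0.103) and Atp6v0a1 without library 3 (1.47, adjusted p = 0.105). Hexa was lost without library 2 and Npc2, Ctsl, Atp6ap1 and Atp6v1b2 without library 2 and without library 3 (adjusted p from 0.0506 to 0.578). Of 8 V1 genes 1 was called, with a median of 0.31.

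In low-mt NP cells 3 cathepsins and both accessory subunits were lower than in intact NP cells. That made 5 of 33 members called lower and 0 higher, and 4.9% of the 13121 genes tested were called, 0.32% higher and 4.58% lower. Lower members made up 15.2%, the median was -0.29, and over all genes it was -0.23. The split of calls depended on the fit: 42 genes of all were higher and 601 lower (6.53% of calls higher), against 271 and 1332 (16.9%) with the DESeq2 Wald test and 501 and 933 (34.9%) in an edgeR fit of only the 2 classes compared. In that last fit 3 members were called higher and 8 lower. The groups were formed by the share of mitochondrial RNA, and the median low-mt cell held 2532.5, 3510 and 1250 UMIs, so a lower level is a lower share of fewer transcripts. Median mitochondrial shares were 0.0478%, 0.0249% and 0.0483% in low-mt and 2.88%, 3.22% and 1.9% in intact NP cells. Cells near the threshold, from 0.5% to 2%, numbered 34, 7 and 6. RNA of the gate genes of other classes moved with the split. The 8 chondrocyte gate genes stood at 901, 608 and 357 CPM in low-mt and 18365, 9395 and 4821 in intact NP cells. The 10 connective gate genes stood at 610.3, 518 and 975 and 6476, 1773 and 48894. Whether NP cells made this RNA themselves was not tested. The 5 macrophage genes outside the gate were at 0 in low-mt NP cells and at 3.25, 5.68 and 0 CPM in intact ones. The part of the chondrocyte and connective RNA in the results was not tested.

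Ctsl stood at 51.4, 22.5 and 32.5 CPM in low-mt and 201, 366 and 169.98 in intact NP cells. Ctsd stood at 55, 15 and 65 against 197, 168 and 124 and Ctsb at 59.4, 52.6 and 65 against 184, 256 and 201 CPM. All low-mt values of these 3 genes lay below all intact values. The log2 fold changes were -2.63 ± 0.53 (adjusted p = 0.0109) for Ctsl, -1.99 ± 0.40 (adjusted p = 0.0109) for Ctsd and -1.80 ± 0.38 (adjusted p = 0.0136) for Ctsb, in 2 of 2 libraries. Both accessory subunits were lower as well, Atp6ap1 at 17.4, 30.03 and 65 against 87, 101 and 139 CPM (-1.87 ± 0.32, adjusted p = 0.00384) and Atp6ap2 at 15.2, 22.5 and 0 against 54.5, 85.2 and 92.7 (-1.90 ± 0.46, adjusted p = 0.0272). All 5 calls were lost without library 2, where low-mt and intact cells then come together in library 1 alone, with adjusted p from 0.134 for Atp6ap1 to 0.442 for Ctsb. Without library 3 Ctsd and Atp6ap1 kept theirs, and with the split at 2% mitochondrial UMIs 0 of 33 were called. With mitochondrial genes taken out of the counts and totals all 5 calls were kept. These genes made up a median of only 2.88%, 3.22% and 1.9% of the UMIs of intact NP cells. Their removal could thus move the fold changes little, and it does not test the split itself.

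The 8 V1 genes had a median of 0.28 in low-mt against intact NP cells (0.11 with DESeq2 size factors), with 0 called either way by edgeR, 1 (Atp6v1f) at an unadjusted p under 0.05, and 1 called higher by DESeq2's Wald test. In the edgeR fit of only the 2 classes Atp6v1f (0.96, adjusted p = 0.00113), Atp6v1e1 (0.78, adjusted p = 0.0365) and Rab38 (0.90, adjusted p = 0.00161) were called higher in low-mt NP cells. Atp6v1f stood at 667, 623 and 519.8 CPM in low-mt and 374, 398 and 169.98 in intact NP cells. Its log2 fold change of 0.77 ± 0.31 (adjusted p = 0.169) missed the threshold. Atp6v1e1 stood at 271, 285 and 292 against 161, 227 and 169.98 CPM, and gave 0.64 ± 0.30 (adjusted p = 0.241). These CPM are before the TMM scaling of the tests, where a larger factor lowers a level. The factors were 0.84, 1.04 and 1.66 for low-mt NP cells and 1.10 and 1.07 for intact NP cells of libraries 1 and 2. The CPM ranges of the 2 genes are therefore not read as separate. Rab38 gave 0.80 ± 0.34 (adjusted p = 0.186). Other NP genes also had a larger share in low-mt NP cells. The 6 further NP genes summed to 26020, 36515 and 41354 CPM there against 12789.5, 21725 and 21047 in intact NP cells. The difference between the V1 genes and the cathepsins was not tested as such.

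**Figure D5:**
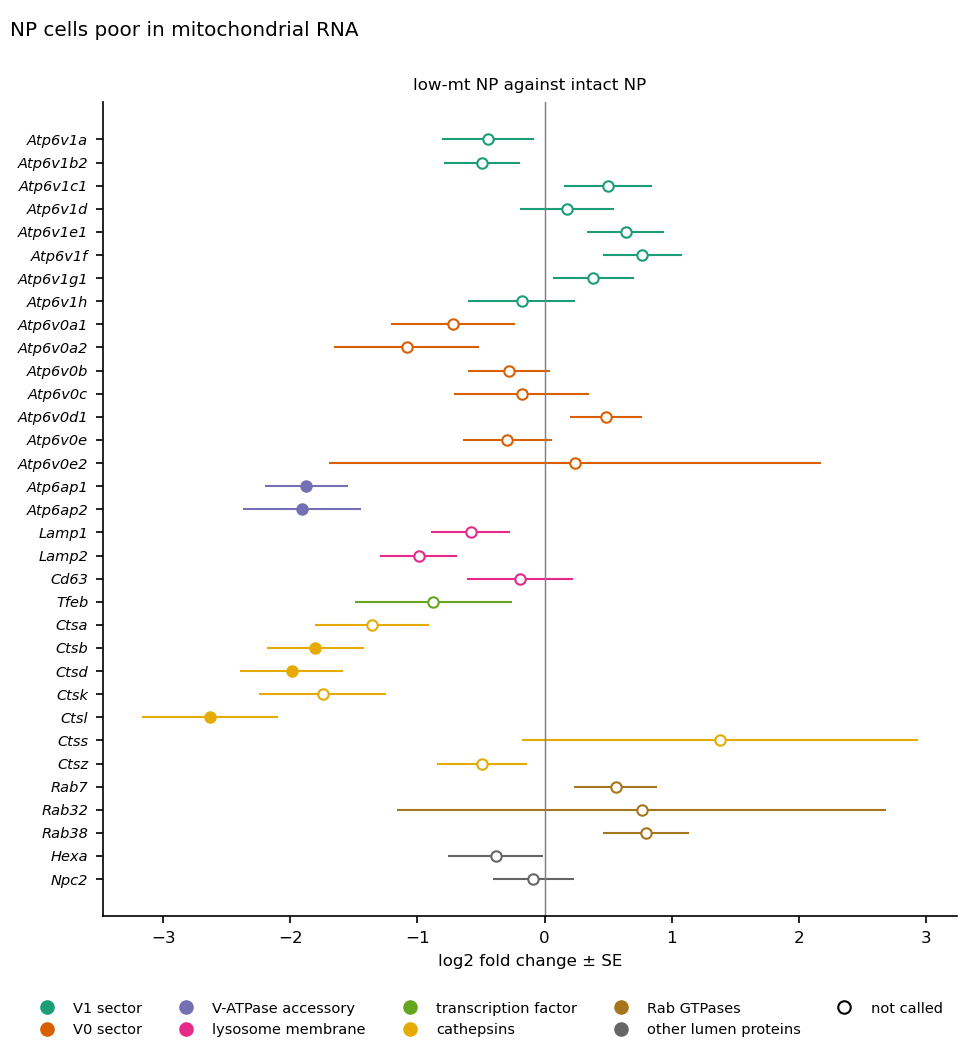
Log2 fold change with its standard error of each tested member in low-mt against intact NP cells, coloured by role, filled where called. The 5 called genes (Atp6ap1, Atp6ap2, Ctsb, Ctsd and Ctsl) lie between -2.63 and -1.80, and the V1 genes lie between -0.49 and 0.77.

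The wider lysosome was followed in 115 further genes in 5 lists. In low-mt against intact NP cells 11 of 37 other hydrolases and activators were lower and 0 higher, with a median of -1.45, and lower genes made up 29.7% of them beside 4.58% of all genes. So were 3 of 16 other membrane proteins (18.8%, median -1.26). Of 31 genes of traffic and sorting 2 were lower (6.45%, median -0.19), near the 4.58% and the median of -0.23 of all genes. Of 10 other V-ATPase genes 0 were called, and 0 of 16 genes of the TFEB family and of mTORC1 at the lysosome. Igf2r, the receptor that brings new hydrolases to the lysosome, stood at 5.79, 7.51 and 0 CPM in low-mt and 82.1, 105 and 61.8 in intact NP cells (-3.76 ± 0.54, adjusted p = 0.0013). The progranulin gene Grn stood at 5.79, 7.51 and 32.5 against 64.3, 108 and 169.98 CPM (-3.37 ± 0.49, adjusted p = 0.0013). The mannosidase gene Manba had 0 UMIs in low-mt NP cells and was at least 2.85-fold lower. For Igf2r, Grn and Manba, as for the 5 called members, the highest low-mt value lay below the lowest intact value. These genes are named because they were called on the same sums, so this adds no support. The values of library 3 rest on 17 low-mt and 9 intact NP cells. Igf2r kept its call under each of the 18 alternatives, Grn lost it without library 2 (-2.98, adjusted p = 0.0813) and with the split at 2%, and Manba (adjusted p = 0.0411) lost it under 9 of 17, leaving out library 1, 2 or 3 among them (adjusted p = 0.53, 0.281 and 0.115).

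Against chondrocytes the other hydrolases had 4 higher and 1 lower of 37, other membrane proteins 0 of 16, other V-ATPase genes 1 higher and 1 lower of 10, the TFEB and mTORC1 list 1 higher of 16 and traffic 2 higher of 31. The hydrolases' share called was 13.5%, beside 12% of all genes. Ctsc, the cathepsin that activates serine proteases of blood cells, stood at 16.3, 26 and 15.5 CPM in intact NP cells and 1.07, 0.991 and 0 in chondrocytes (4.23 ± 0.55, adjusted p = 1.04e-04), and at 34.6, 89.7 and 74.7 in other blood cells. Rab27a, a GTPase of secretory lysosomes, gave 2.54 ± 0.56 (adjusted p = 0.00692), at 13, 40.6 and 0 against 5.36, 2.48 and 4.46 CPM. Mitf, a relative of Tfeb known for melanocytes and osteoclasts, stood at 34.2, 38.1 and 30.9 against 7.71, 5.45 and 8.91 CPM (2.29 ± 0.41, adjusted p = 0.00144). Lower were Atp6v0a4, 9.9-fold (95% counting interval 2.68 to 82.7) by pooled UMIs, and the glucuronidase gene Gusb (-1.19 ± 0.31, adjusted p = 0.0185). Without library 2 Rab27a (1.30, adjusted p = 0.697), Mitf (1.97, adjusted p = 0.223), Atp6v0a4 (adjusted p = 0.671) and Gusb (-0.94, adjusted p = 0.759) lost their calls, and Atp6v0a4 and Gusb also without library 3 (adjusted p = 0.0835 and 0.0551).

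Against other connective tissue 3 hydrolases were higher and 2 lower, 3 other V-ATPase genes higher and 1 lower, 1 membrane gene each way, 3 of the TFEB and mTORC1 list higher and 1 lower, and 3 of traffic higher and 0 lower. Hydrolases were called at 13.5%, membrane proteins at 12.5%, traffic genes at 9.68%, TFEB and mTORC1 genes at 25% and other V-ATPase genes at 40%, beside 22.9% of all genes. Rab27a (4.21 ± 0.63, adjusted p = 1.75e-04), Mitf (2.91 ± 0.42, adjusted p = 1.15e-04) and Fnip2, a partner of folliculin at the lysosome (2.71 ± 0.41, adjusted p = 2.08e-04) had the largest log2 fold changes. Rragd had 0 UMIs in intact NP cells and was at least 2.09-fold lower. Galns was 20.1-fold (95% counting interval 5.52 to 167) lower by pooled UMIs. Both pooled ratios mix the libraries unequally. Other connective tissue held 1099286, 4385677 and 13043129 UMIs, mostly of library 3, and intact NP cells 1229529, 1232704 and 64712. With library as a block, edgeR gave a log2 fold change of -4.00 (adjusted p = 0.00217) for Galns. The lysosomal calcium channel gene Mcoln1 gave -2.01 ± 0.53 (adjusted p = 0.0115), at 4.88, 4.06 and 0 against 12.7, 16 and 25.8 CPM. Tcirg1, which encodes the a3 subunit of the pump, stood at 13, 7.3 and 15.5 CPM in intact NP cells, 46.4, 15.3 and 16.9 in other connective tissue and 111, 70.4 and 103 in macrophages, and was called lower than in both (log2 fold changes -1.24 and -3.43, adjusted p = 0.014 and 7.79e-07). Its level in chondrocytes, 12.6, 8.92 and 16.3 CPM, overlapped that in NP cells. It was named for its subunit, after its values were seen. Without library 2 the calls against other connective tissue of Fnip2 (adjusted p = 0.0608), Rragd (0.0997), Galns (0.232), Mcoln1 (0.36) and Tcirg1 (0.441) were lost. Without library 3 those of Rragd (0.0599) and Mcoln1 (0.0726) were, and without library 1 that of Tcirg1 (0.0506).

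Against macrophages 21 of 37 hydrolases were lower and 1 higher, 7 of 16 membrane proteins lower and 2 higher, 8 of 31 traffic genes lower and 2 higher, 5 of 16 TFEB and mTORC1 genes lower and 0 higher, and 2 of 10 other V-ATPase genes lower and 1 higher. Lower genes made up 56.8% of the hydrolases, 43.8% of the membrane proteins and 25.8% of the traffic genes, beside 26.5% of all genes. Laptm5, a lysosomal protein of blood cells, stood at 2.44, 2.43 and 0 CPM in intact NP cells and 845, 515 and 623 in macrophages (-8.30 ± 0.54, adjusted p = 2.65e-08). Slc15a3, a lysosomal peptide transporter, was 129-fold (95% counting interval 23.1 to 5109.7) lower by pooled UMIs and Rragd at least 1.76-fold lower (adjusted p = 0.0135, and 0.164 without library 2). Higher were Laptm4b (2.94 ± 0.40, adjusted p = 1.93e-05), Igf2r (2.13 ± 0.36, adjusted p = 1.59e-04) and Snapin, which links vesicles to motors (1.60 ± 0.30, adjusted p = 4.38e-04). Igf2r held 82.1, 105 and 61.8 CPM in intact NP cells against 4.42, 16 and 20.1 in macrophages.

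Against other blood cells hydrolases were called at 54.1% and membrane proteins at 56.2%, near the 55.3% of all genes, with 11 hydrolases higher and 9 lower, 5 membrane proteins higher and 4 lower, 3 traffic genes each way, 2 TFEB and mTORC1 genes higher and 4 lower, and 1 other V-ATPase gene each way. The asparaginyl protease gene Lgmn stood at 229, 366 and 417 CPM in intact NP cells against 8.94, 13.1 and 12.3 (4.38 ± 0.44, adjusted p = 3.91e-07), and Mitf (3.72 ± 0.38, adjusted p = 5.50e-07) and Laptm4b (3.71 ± 0.34, adjusted p = 1.42e-07) followed. Laptm5 (-6.94 ± 0.52, adjusted p = 1.66e-08), Slc15a3 (45.2-fold lower by pooled UMIs, 95% counting interval 8.1 to 1784) and Rragd (at least 1.99-fold lower, adjusted p = 0.00688, and 0.059 without library 2) were at the other end. Macrophages exceeded other blood cells in 26 of 37 hydrolases, 9 of 16 membrane proteins, 6 of 31 traffic genes, 3 of 16 TFEB and mTORC1 genes and 2 of 10 other V-ATPase genes, with 0 lower, beside 9.85% of all genes called higher. They were led by Lgmn (5.77 ± 0.44, adjusted p = 1.41e-07), Cd68 (4.02 ± 0.32, adjusted p = 1.88e-07) and the acid phosphatase gene Acp2 (3.85 ± 0.22, adjusted p = 1.35e-08).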

How the data were processed

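The deposited counts are whole numbers of UMIs per gene and barcode, made by the authors with Cell Ranger 3.0.2 on mm10 and analysed with Seurat 4 per the submitters' processing notes. Per the file headers, the matrix of library 1 was written by software version 3.0.1 and those of libraries 2 and 3 by 6.0.0. The members, lists and gates were chosen with earlier results of these data known. Barcodes were kept from 500 genes upwards where mitochondrial UMIs made up 15% or less (5732, 10786 and 10364), and Scrublet (scanpy 1.11.5) removed 93, 540 and 356 as doublets. Cells were gated by the number of marker genes with a UMI. Cells that met a blood or endothelial gate as well as a gate of the connective lineages were set aside.

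Counts were summed per library and class, and sums of at least 10 cells (17) entered 1 edgeR 4.0.16 quasi-likelihood fit (R 4.3.3, filterByExpr, TMM) with library as a block, since all sums of a library share its pool of mice. Same-library sums deviated together weakly (correlations 0.00643 to 0.446 over 40 pairs, and -0.425 to 0.267 over 80 pairs of other libraries). Deviations were from each class's own mean and so sum to 0 within a class. The ranges are therefore tied to each other, and that of other libraries is no neutral reference. Standard errors are the fold change divided by the root of F. P-values measure the spread of class sums between pools that is left after the library block, estimated over the 6 classes together. For intact NP cells they rest on libraries 1 and 2 alone. Every member is named, and of the wider lists the 3 largest and 3 smallest called changes with the same direction in every library where both sums were fitted. For intact NP cells that leaves out library 3. Ratios at 1 to 3 UMIs carry 95% intervals for counting error only, and floors take 3 UMIs over a group. Both pool UMIs over the libraries without the block, and the classes hold unlike shares of each library. The alternatives were 16 planned and 2 chosen after seeing the data (sums of at least 5 cells, and without the low-mt sum of library 3). Unassigned, mixed, osteoclast-gated and endothelial cells entered no test.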

Additional observations from a re-analysis of the deposited data

How the results depend on the processing

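Counts of members called moved by more than 1.5 times under the settings below, with edgeR's reported count in brackets. Against chondrocytes (3) DESeq2's Wald test gave 7, cells with at least 1000 genes 5, and leaving out 1 library 1 to 7. Against other connective tissue (7) a fit of only the 2 classes compared gave 1, and leaving out 1 library 1 to 11. Against macrophages (16) leaving out 1 library gave 8 to 16, and against other blood cells (10) it gave 5 to 14 and the Wald test 17. For low-mt against intact NP cells (5) DESeq2 size factors gave 8, the Wald test 10, only the 2 classes 11, the split at 2% of mitochondrial UMIs 0, and leaving out 1 library 0 to 7. Macrophages against other blood cells (12) gave 6 to 16. Library 2 was the library whose loss took most calls: of 53 member calls 32 were lost without it, 17 without library 3 and 5 without library 1. Without the replicate block 2 were lost (Atp6v1a against other connective tissue and Ctsd in low-mt NP cells), and the 6 counts stayed within 1.5 times. Under all 18 alternatives 19 of 53 kept their call, and 0 reversed. Causes were not tested.

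Over all genes, against chondrocytes (1575 called) only the 2 classes gave 372 and leaving out library 1, 2 or 3 gave 2380, 169 and 895. Against other connective tissue (3001) only the 2 classes gave 669, and 763 and 1823 were called without library 2 and 3. Against macrophages (6346) these were 3747 for only the 2 classes and 2609 without library 2, and against other blood cells (7260) 3925 without library 2. For low-mt against intact NP cells (643) DESeq2 size factors gave 1320, the Wald test 1603, no replicate block 424, only the 2 classes 1434, cells with at least 1000 genes 410, splits at 0.5% and 2% 982 and 62, a higher doublet rate 307, and 161 and 226 were called without library 2 and 3. For macrophages against other blood cells (1857) they were 2855 for only the 2 classes and 3389, 686 and 739 without library 1, 2 and 3. DESeq2 size factors moved the median log2 fold change of all genes from -0.23 to -0.50 in low-mt NP cells and from -0.17 to -0.03 against other blood cells. The low-mt and intact NP sums of library 3 (30783 and 64712 UMIs) limit what can be seen there, since 1 UMI is 32.5 and 15.5 CPM.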

Other observations

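Osteoclast-gated cells were few (1, 23 and 43 in the 3 libraries) and entered no test, and the 1 cell of library 1 gives a value with no weight of its own. Their V1 genes summed to 5871, 4961 and 5631 CPM, against 1415, 969.8 and 901 in macrophages and 1168, 1298 and 742 in intact NP cells. Atp6v0d2, the d subunit known from bone-resorbing cells, stood at 1085, 950.1 and 962 CPM, against 0, 2.34 and 7.57 in macrophages and 0 UMIs in NP cells. Ctsk stood at 2808, 10641 and 8101 CPM, Npc2 at 1563, 2050.3 and 2321 and Atp6v0b at 1436, 1955 and 1975. Lamp1, at 31.9, 65.2 and 63.9 CPM, and Atp6v0a1, at 0, 4.55 and 5.4, lay below the values of intact NP cells.

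Within other blood cells the sub-classes differed in level, as a description over libraries with no test. Cd63 stood at 507, 458 and 571 CPM in neutrophil-gated cells, 14, 13.3 and 9.94 in B-lineage cells and 14.2, 8.11 and 7.7 in erythroid cells. Tfeb stood at 41.1, 28.8 and 34.3 CPM in B-lineage cells and 12.6, 13.5 and 12.1 in neutrophil-gated cells. Ctsb stood at 390.02, 353 and 432 CPM in erythroid cells and 476, 668 and 1339 in endothelial cells, the latter above intact NP cells in every library. Ctsl stood at 1562, 1564 and 865 CPM in marrow-stroma-gated cells, of which there were 13, 12 and 29, and 432, 741 and 654 in endothelial cells.

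Rnasek, a V-ATPase-associated gene of the wider lists named after its values were seen, had the same library pattern as Atp6v0c, with 2.7, 193 and 198 CPM in other blood cells and 4.88, 307 and 263 in intact NP cells. Its cause was not tested.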
